A study of Homo sapiens with 15 samples.

Results

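To examine the genes that attach ccRCC cells to their matrix, fibronectin (*FN1*), the laminin chains and the integrin subunits were taken from the RNA-seq data of WT and ANGPTL4 knockout cells. Members were chosen by symbol alone, as every row named *FN1*, *LAMA*, *LAMB* or *LAMC* with a number, or *ITGA* or *ITGB* with its number or letter. This gave 38 of the 16296 genes of the CAKi-1 data and 36 of the 16188 genes of the 786O data. Both sets hold *FN1*; CAKi-1 adds 12 laminin chains and 25 integrin subunits, and 786O adds 11 and 24. *ITGAM* and *LAMC3* were listed for CAKi-1 alone, and *ITGA8* was not analysed here. The rule reads symbols and uses no measured value.

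CAKi-1 and 786O are established human ccRCC cell lines, the former with WT *VHL* and the latter with mutant *VHL*. CAKi-1 was measured in 9 libraries, 4 from WT and 5 from ANGPTL4 KO (A4KO) cells, and 786O in 6, with 3 per genotype. A4KO cells of each line are a combination of single clones, selected after CRISPR-Cas9 editing with a guide RNA for lack of *ANGPTL4* mRNA, so each knockout is 1 mixture of clones per line. The 786O WT cells combine clones that kept *ANGPTL4*; for CAKi-1 the sources differ, the deposited design naming combined clones and the methods naming parental cells. All groups were cultures harvested before confluence with no treatment named, in RPMI by the deposited protocol and in DMEM by the methods. No source says whether libraries of a group came from separate cultures, so every p-value measures the spread between these libraries, which may be technical.

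*ANGPTL4* itself lay between 71.7 and 86.9 TPM (transcript abundance scaled for length and for the library) in WT and between 2.87 and 7.26 TPM in A4KO libraries of CAKi-1. In 786O it lay between 17.6 and 20.6 TPM in WT and between 1.86 and 2.19 TPM in A4KO libraries. The A4KO libraries were below the WT libraries in both lines, as the genotype labels state. TPM holds no read numbers, so the depth of each library is unknown and no counting error can be attached to single values. Among the CAKi-1 A4KO libraries, replicates 1 and 4 stood apart from replicates 2, 3 and 5. *ANGPTL4* was 7.26 and 6.47 TPM in replicates 1 and 4, and 2.87, 2.87 and 2.90 TPM in replicates 2, 3 and 5. The root mean square difference over all genes was 0.19 on the log2 scale between replicates 1 and 4, 0.18 to 0.21 among the other 3, and 0.32 to 0.38 between the sets. Replicates 1 and 4 both lay outside the range of the other 3 for 27 of the 38 members (71.1%) and for 60.0% of all genes. By adjusted p alone, 12 members rose and 10 fell over all 5 A4KO libraries, 11 and 10 over replicates 2, 3 and 5, and 16 and 10 over replicates 1 and 4. Of the 22 that passed over all libraries, 17 passed in both sets. Over all 5 A4KO libraries 17.9% of all genes rose and 21.1% fell by this measure. Shares of all genes in the 2 sets are not given here, so the counts of the sets do not compare members with other genes. Values over each set are given where a member passed in 1 set alone, or where a change that passed differed by over 1.5 times between the sets.

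Integrins are receptors made of 1 α and 1 β subunit that span the membrane and join the extracellular matrix to the actin cytoskeleton or, for the α and β chains of hemidesmosomes, to keratin filaments. Laminins are trimers of an α, a β and a γ chain and form the basement membrane on which kidney tubule cells rest. Fibronectin is a secreted glycoprotein that cells assemble into fibrils by pulling on it through integrins, and its expression is widely used as a sign of a mesenchymal state in carcinoma cells.

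*FN1* (ENSG00000115414.21, hg38 chromosome 2, 215360440 to 215436073, minus strand) moved in opposite directions in the lines, and on the log2(TPM + 1) scale it differed more than any other member in each. By the ratio of mean TPM, *ITGB7* (13.5 times higher) and *ITGA4* (4.79 times lower) differed more in 786O. In CAKi-1 the WT libraries held 181, 197, 220 and 287 TPM of *FN1*, and A4KO replicates 1 to 5 held 9235, 3879, 3311, 8692 and 3599 TPM. Every A4KO library lay over 10 times above every WT library, with replicates 1 and 4 the highest. The mean rose from 221 ± 46.6 TPM (SD, n = 4) to 5743 ± 2953 TPM (SD, n = 5), a ratio of 26.0. On the log2(TPM + 1) scale, on which all differences are given here, *FN1* rose by 4.57 (SE 0.34, limma adjusted p = 2.48e-05; exact permutation p = 0.0159, two-sided, the smallest that 4 against 5 libraries allow). This was rank 5 among all rises in CAKi-1, and *FN1* went from rank 657 to rank 13 in mean TPM.

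In 786O the *FN1* level went the other way. The WT libraries held 4200, 3997 and 4043 TPM and the A4KO libraries 897, 909 and 920 TPM, so the groups did not overlap and the libraries of each group were close together. The mean fell from 4080 ± 107 TPM (SD, n = 3) to 909 ± 11.3 TPM (SD, n = 3), 4.49 times lower, and the log2 difference was -2.16 (SE 0.04, limma adjusted p = 3.3e-07). The exact permutation p of 3 against 3 libraries cannot go below 0.1. The A4KO effect in 786O minus that in CAKi-1 was -6.73 for *FN1* (SE 0.44, adjusted p = 2.98e-08 by the interaction term of limma over the 15247 genes in both tables). Set side by side, WT 786O libraries (3997 to 4200 TPM) lay just above CAKi-1 A4KO replicates 2, 3 and 5 (3311 to 3879 TPM), in tables that were each scaled within the library.

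The rise of *FN1* in CAKi-1 was present in both sets of A4KO libraries. Over replicates 2, 3 and 5 it was 4.04 (SE 0.15, limma adjusted p = 8.3e-06) with a mean of 3596 TPM, and over replicates 1 and 4 it was 5.36 (adjusted p = 2.75e-05) with a mean of 8964 TPM, 2.49 times the former. *FN1* alone took 0.0186% to 0.0295% of the TPM of a WT library and 0.341% to 0.949% of a CAKi-1 A4KO library. In 786O its share was 0.412% to 0.433% in WT and 0.0924% to 0.0949% in A4KO libraries. A share of this size leaves the TPM of the other genes nearly as it was.

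The promoter of *FN1* is shown because this gene was called in both lines with opposite directions and at high levels. The 250 bases before the RefSeq start (GRCh38.p14, minus strand, chr2:215436069-215436318) read, 5′ to 3′, with capitals marking matches to the motifs searched:
FN1 promoter: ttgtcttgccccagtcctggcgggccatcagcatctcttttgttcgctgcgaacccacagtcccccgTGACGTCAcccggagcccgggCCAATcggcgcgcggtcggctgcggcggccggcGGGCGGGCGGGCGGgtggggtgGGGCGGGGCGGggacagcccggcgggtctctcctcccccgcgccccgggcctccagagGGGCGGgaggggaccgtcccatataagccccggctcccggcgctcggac
A cAMP response element (TGACGTCA) lies 183 bases before the start, a CCAAT box (CCAAT) 162 bases before it, and 6 GC boxes (GGGCGG) between 129 and 49 bases before it. Both strands were searched, and adjacent GC boxes were counted also where they overlap. Of 35116 promoter windows of this length in RefSeq, 1.65% hold TGACGTCA, 32.0% hold CCAAT and 42.6% hold GGGCGG. The letters of a TATA box (TATAAA, in 10.7% of windows), of an AP-1 site (TGANTCA, 6.57%) and of a hypoxia response core (ACGTG, 18.5%) are not in this window. The TATA box was searched by these exact letters alone. The stretch tataag near the end of the window, which differs from them in its last letter, was not marked. A match is a stretch of letters and no evidence of binding, and RNA levels were the sole readout.

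**Figure D1:**
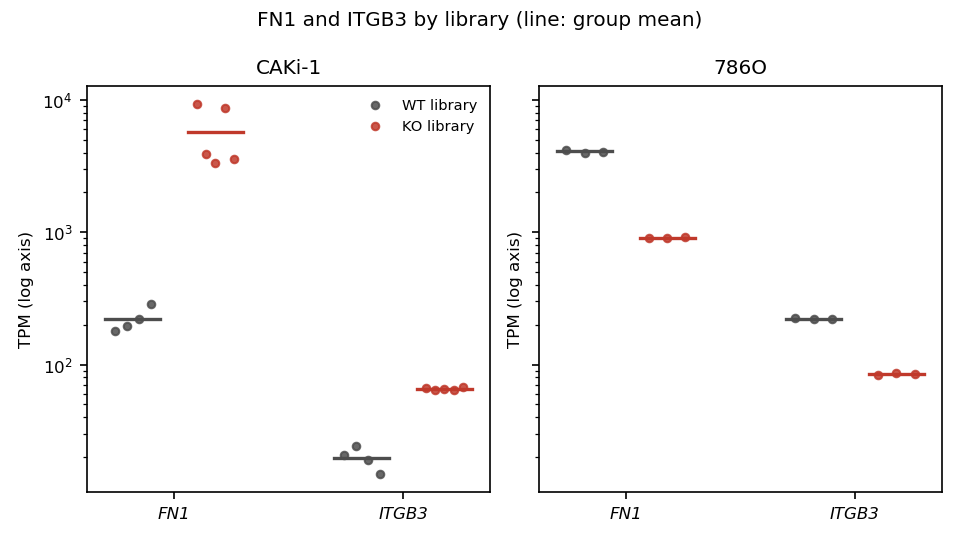
TPM of *FN1* and *ITGB3* in each WT and A4KO library (KO in the legend) of CAKi-1 and 786O on a log axis, with lines at the group means. Both genes are higher in A4KO libraries of CAKi-1 (*FN1* 3311 to 9235 against 181 to 287 TPM) and lower in those of 786O (897 to 920 against 3997 to 4200 TPM).

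*ITGB3* (ENSG00000259207.10, chromosome 17, 47253827 to 47313743, plus strand), the β3 subunit that pairs with αv to bind fibronectin and vitronectin, was the other member called in both lines, and it moved the same way as *FN1* in each. A member is called where it differs at least 2-fold at an adjusted p of at most 0.05. The CAKi-1 WT libraries held 20.6, 24.2, 19.0 and 14.9 TPM of *ITGB3*, and A4KO replicates 1 to 5 held 66.6, 63.9, 65.3, 63.8 and 68.0 TPM. The groups did not overlap and, unlike *FN1*, the A4KO libraries did not separate into the 2 sets (1.71 over replicates 2, 3 and 5, and 1.70 over replicates 1 and 4). *ITGB3* rose by 1.70 (SE 0.11, limma adjusted p = 1.43e-05), a ratio of 3.33 in mean TPM.

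In 786O the WT libraries held 224, 221 and 222 TPM of *ITGB3* and the A4KO libraries 82.8, 86.4 and 85.2 TPM. Every A4KO library lay below every WT library, and *ITGB3* fell by 1.38 (SE 0.03, limma adjusted p = 1.16e-06). The difference of the effects was -3.08 (SE 0.15, adjusted p = 1.27e-09, interaction term of limma). Across all shared genes, opposite calls in the lines were made for 0.649%, and same-direction calls for 0.400%. Among the 36 shared members, the 2 called in both lines, *FN1* and *ITGB3*, were both opposite.

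*ITGAV*, the αv subunit, followed *ITGB3* at a smaller size. It rose in CAKi-1 from 99.2 ± 6.94 TPM (SD, n = 4) to 135 ± 17.9 TPM (SD, n = 5), by 0.44 (limma adjusted p = 0.0068; 0.31 over replicates 2, 3 and 5 and 0.63 over replicates 1 and 4), and fell in 786O from 118 ± 2.99 TPM (SD, n = 3) to 88.1 ± 0.352 TPM (SD, n = 3), by 0.42 (limma adjusted p = 0.000112). Neighbour-corrected, that is, less the shift common to nearby genes, the 786O fall was 0.25 (adjusted p = 0.0014). Its other β partners differed from *ITGB3*. *ITGB5* fell by 0.27 in CAKi-1 (adjusted p = 0.0132, but 0.0669 under quantile normalization and 0.191 neighbour-corrected) and was 307 TPM in WT and 315 TPM in A4KO cells of 786O (adjusted p = 0.631). *ITGB6*, whose dimer with αv activates latent TGF-β, rose in both lines, by 0.35 in CAKi-1 (adjusted p = 0.00838; 0.24 over replicates 2, 3 and 5 and 0.51 over replicates 1 and 4) and by 0.50 in 786O (adjusted p = 7.83e-05). *ITGB8* rose by 0.55 in CAKi-1 (adjusted p = 0.0149; 0.35 over replicates 2, 3 and 5 and 0.85 over replicates 1 and 4) and was 39.2 and 41.6 TPM in WT and A4KO cells of 786O (adjusted p = 0.143; 0.0176 for a neighbour-corrected difference of 0.20).

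Of the summed TPM of the αv partners other than *ITGB1* (*ITGB3*, *ITGB5*, *ITGB6* and *ITGB8*), *ITGB3* made up 12.4% to 17.0% in CAKi-1 WT libraries and 37.0% to 40.4% in A4KO libraries. In 786O its share was 37.9% to 39.6% in WT and 18.3% to 19.4% in A4KO libraries. The share of *ITGB5* moved from a mean of 68.3% to 43.5% in CAKi-1 and from 53.4% to 69.9% in 786O. These are shares of RNA, and protein pairing was not measured.

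*ITGA5*, which with β1 forms the classical fibronectin receptor, moved against its ligand in CAKi-1. There *FN1* rose, and *ITGA5* fell from 108 ± 5.21 TPM (SD, n = 4) to 67.7 ± 2.54 TPM (SD, n = 5), by 0.66 (SE 0.05, limma adjusted p = 3.03e-05), and its highest A4KO library (70.9 TPM) lay below its lowest WT library (103 TPM). In 786O it was 73.6 and 67.3 TPM in WT and A4KO cells, a difference of -0.13 (95% interval -0.25 to -0.01) that did not pass the adjustment (adjusted p = 0.0682). It passed with the trend and robust options of eBayes (-0.13, adjusted p = 0.0367) and neighbour-corrected (-0.24, adjusted p = 0.0111). The lines differed by 0.53 (adjusted p = 3.62e-05). *ITGB1*, the β subunit shared by most matrix receptors, was the most abundant integrin transcript in all groups but the 786O A4KO cells, where *ITGA3* was higher (742 TPM). It was 1379 ± 42.1 TPM (SD, n = 4) in WT and 1425 ± 119 TPM (SD, n = 5) in A4KO cells of CAKi-1 (adjusted p = 0.636), and over replicates 1 and 4 the difference was 0.17 (adjusted p = 0.0299). Over replicates 2, 3 and 5 it was -0.04 (adjusted p = 0.499), and neighbour-corrected it was 0.21 (adjusted p = 0.0241). In 786O it fell from 972 ± 6.64 TPM (SD, n = 3) to 689 ± 8.08 TPM (SD, n = 3), by 0.50 (limma adjusted p = 3.77e-05).

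The laminin chains changed less than *FN1* in CAKi-1 and mostly fell in 786O. By adjusted p alone, 3 of 12 chains rose and 5 fell in CAKi-1, where 17.9% of all genes rose and 21.1% fell by this measure, and none of these reached 2-fold. In 786O, 1 of 11 chains rose and 7 fell, against 27.5% and 33.5% of all genes, and 2 of those that fell, *LAMA5* among them, were called, where 5.19% of all genes were called lower. The median difference over the chains was -0.01 in CAKi-1 and -0.43 in 786O. Over all genes the median was -0.01 and -0.03.

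*LAMA5* (ENSG00000130702.15, chromosome 20, 62307955 to 62367312, minus strand), the α chain of the main laminins of adult epithelial basement membranes, fell most among the chains in 786O. Its WT libraries held 36.9, 34.2 and 32.5 TPM and its A4KO libraries 7.77, 8.32 and 10.5 TPM, with no overlap. *LAMA5* fell by 1.86 (SE 0.11, limma adjusted p = 2.54e-05). In CAKi-1 the WT libraries held 14.8, 13.2, 13.0 and 11.7 TPM and A4KO replicates 1 to 5 held 19.0, 9.04, 11.5, 16.9 and 12 TPM. A4KO replicates 1 and 4 lay above all WT libraries there, while replicates 2 and 3 lay below them, and the difference was 0.01 (adjusted p = 0.975). Over replicates 2, 3 and 5 it was -0.27 (adjusted p = 0.0884), and over replicates 1 and 4 it was 0.42 (adjusted p = 0.0103). The effect in 786O minus that in CAKi-1 was -1.87 (SE 0.26, adjusted p = 4.01e-05, interaction term of limma).

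The promoter of *LAMA5* is shown as that of the called laminin chain described above. The 250 bases before its RefSeq start (GRCh38.p14, minus strand, chr20:62367313-62367562) read, 5′ to 3′, with capitals marking GC boxes on either strand:
LAMA5 promoter: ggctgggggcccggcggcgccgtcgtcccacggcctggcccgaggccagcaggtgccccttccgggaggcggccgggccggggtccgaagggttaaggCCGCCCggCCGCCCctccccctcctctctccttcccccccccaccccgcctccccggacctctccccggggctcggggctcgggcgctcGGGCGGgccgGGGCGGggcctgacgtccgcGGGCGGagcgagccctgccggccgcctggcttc
It holds 5 GC boxes, GGGCGG or its reverse complement, between 152 and 33 bases before the start, and none of the other letters searched. The windows of *ITGA4* and *ITGB7*, the other called members searched, hold no match to any of the 6 motifs, which says only that these letters are not in those windows. By GENCODE both genes begin within their window, *ITGA4* at 181457202 in 181457136 to 181457385 and *ITGB7* at 53207282 in 53207252 to 53207501. By that annotation most of the *ITGA4* window and the end of the *ITGB7* window are transcribed. The collection of promoter windows used here held 26 of the 38 members. *ITGB3* was not in it, so no promoter is shown for that gene.

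*LAMA3* and *LAMB3*, chains of the laminin that anchors epithelia, fell in 786O and did not pass the test in CAKi-1. *LAMA3* fell in 786O from 74.0 ± 1.35 TPM to 42.6 ± 0.893 TPM (SD, n = 3 each), by 0.78 (limma adjusted p = 9.81e-06), and *LAMB3* from 21.6 ± 1.31 TPM to 14.4 ± 0.497 TPM (SD, n = 3 each), by 0.55 (limma adjusted p = 0.00023). In CAKi-1 the *LAMA3* libraries ran from 17.0 to 24.2 TPM in WT and from 23.1 to 29.1 TPM in A4KO (difference 0.21, adjusted p = 0.17). *LAMB3* ran from 22.4 to 61.3 TPM in WT and from 38.7 to 67.1 TPM in A4KO libraries (difference 0.45, adjusted p = 0.222), and without WT replicate 4 the difference was 0.71 (adjusted p = 0.0398). The lines differed for *LAMB3* by -1.0 (adjusted p = 0.0297) and for *LAMA3* by -0.99 (adjusted p = 6.1e-05, interaction term of limma), the latter just short of the 2-fold threshold.

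*LAMC1*, the γ1 chain of most laminins, and *LAMB1* were the most abundant laminin transcripts, and both fell in both lines. *LAMC1* fell by 0.22 in CAKi-1 (adjusted p = 0.02), from 215 to 185 TPM, and by 0.77 in 786O (adjusted p = 3.45e-05), from 149 to 87.1 TPM. *LAMC1* lies on chromosome 1 (183023420 to 183145592), and neighbour-corrected, the CAKi-1 difference of *LAMC1* was 0.03 (adjusted p = 0.73). It passed over A4KO replicates 2, 3 and 5 (-0.28, adjusted p = 0.00585) and missed the threshold over replicates 1 and 4 (-0.13, adjusted p = 0.0995), under quantile normalization (-0.13, adjusted p = 0.174) and without WT replicate 1, 2 or 4 (adjusted p = 0.0569, 0.0519 and 0.0525). *LAMB1* fell by 0.40 in CAKi-1 (adjusted p = 0.00861), from 281 to 212 TPM, and by 0.12 in 786O (adjusted p = 0.036), from 147 to 136 TPM. In CAKi-1 it passed over A4KO replicates 2, 3 and 5 (-0.43, adjusted p = 0.017) and missed the threshold over replicates 1 and 4 (-0.34, adjusted p = 0.0766) and under quantile normalization (-0.29, adjusted p = 0.0582). In 786O it did so without WT replicate 1 or 3 or A4KO replicate 1 or 2 (adjusted p = 0.0807, 0.103, 0.0912 and 0.106) and with a block for the replicate number (adjusted p = 0.0696), and neighbour-corrected the fall was 0.18 (adjusted p = 0.0127).

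*LAMB2* and *LAMA4*, chains of laminins found around glomeruli and vessels, rose in CAKi-1. For *LAMB2* the WT libraries held 26.4 to 33.4 TPM and the A4KO libraries 40.6 to 74.6 TPM, with replicates 1 and 4 highest (73.9 and 74.6 TPM). It rose by 0.82 (SE 0.19, limma adjusted p = 0.0078), by 0.54 over replicates 2, 3 and 5 and by 1.25 over replicates 1 and 4, and it fell by 0.43 in 786O (adjusted p = 0.00104), or by 0.16 neighbour-corrected (adjusted p = 0.0404). *LAMA4* rose in CAKi-1 from 26.9 ± 1.80 TPM (SD, n = 4) to 47.5 ± 2.97 TPM (SD, n = 5), by 0.80 (SE 0.06, limma adjusted p = 3.59e-05), and was below 1 TPM in every 786O library (difference -0.30, adjusted p = 0.104; -0.42 and adjusted p = 0.038 without WT replicate 3). The lines differed by -1.25 for *LAMB2* (adjusted p = 0.000735) and by -1.10 for *LAMA4* (adjusted p = 2.13e-05).

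*LAMA1*, the α chain of the embryonic laminin, fell by 0.64 in CAKi-1 (limma adjusted p = 0.0026), from 23.8 to 15.1 TPM, by 0.47 over replicates 2, 3 and 5 and by 0.90 over replicates 1 and 4. In 786O it was 0.305 and 0.416 TPM in WT and A4KO cells (difference 0.11, adjusted p = 0.387; 0.21 and adjusted p = 0.0457 without A4KO replicate 3, 0.34 and adjusted p = 0.0345 neighbour-corrected). *LAMA2* rose by 0.76 in CAKi-1 (adjusted p = 0.00185), from 2.80 to 5.37 TPM. Of the summed α chain TPM in CAKi-1, *LAMA4* made up a mean of 30.3% in WT and 44.3% in A4KO cells, while *LAMA1* went from 26.8% to 14.2%. In 786O *LAMA3* and *LAMA5* together held nearly all α chain RNA, *LAMA3* going from 66.8% to 79.5% and *LAMA5* from 31.1% to 16.5%. *LAMB4* and *LAMC3* were below 1 TPM in each library in which they were listed, and the difference of *LAMB4* in CAKi-1 passed over replicates 1 and 4 (-0.29, adjusted p = 0.0357) but not over replicates 2, 3 and 5 (-0.16, adjusted p = 0.15).

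**Figure D2:**
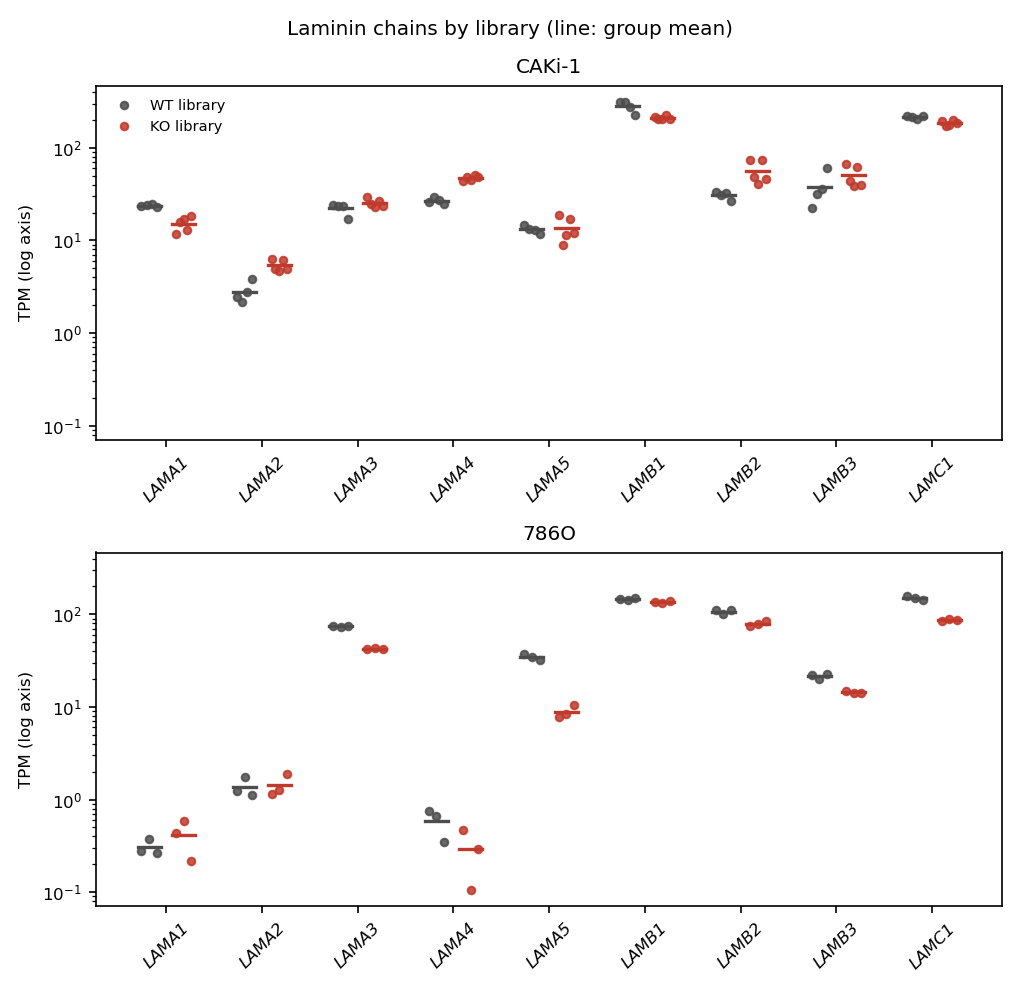
TPM of 9 laminin chains in each library of CAKi-1 (upper panel) and 786O (lower panel) on a log axis, with lines at the group means and WT and A4KO libraries side by side. *LAMA4* and *LAMB2* are higher and *LAMA1* lower in A4KO libraries of CAKi-1, and *LAMA5* (7.77 to 10.5 against 32.5 to 36.9 TPM) is furthest below WT in 786O.

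Among the integrin subunits that bind laminin, *ITGA6*, the partner of β4 in hemidesmosomes, fell in both lines. In CAKi-1 the WT libraries held 19.8, 20.1, 19.6 and 16.0 TPM and A4KO replicates 1 to 5 held 6.72, 11.3, 12.2, 6.83 and 12.6 TPM. The groups did not overlap, replicates 1 and 4 were lowest, and *ITGA6* fell by 0.91 (SE 0.19, limma adjusted p = 0.00548), by 0.61 over replicates 2, 3 and 5 and by 1.35 over replicates 1 and 4. In 786O it fell from 23.6 ± 1.15 TPM to 13.1 ± 0.559 TPM (SD, n = 3 each), by 0.80 (limma adjusted p = 3.51e-05). *ITGA3*, the most abundant α subunit of both lines, did not pass the test in either, with 582 and 514 TPM in WT and A4KO cells of CAKi-1 (adjusted p = 0.341; 0.00735 for a difference of -0.53 over replicates 1 and 4, and 0.888 for 0.02 over replicates 2, 3 and 5) and 779 and 742 TPM in 786O (adjusted p = 0.202; 0.0242 for a neighbour-corrected difference of -0.15). It made up 65.2% of the summed α subunit TPM in CAKi-1 WT and 70.5% in 786O WT cells. *ITGA7*, a laminin receptor of muscle, rose in both lines, by 0.90 in CAKi-1 (adjusted p = 0.000125) and by 0.73 in 786O (adjusted p = 0.000588), to means of 5.95 and 2.34 TPM. *ITGB4* was 6.19 and 4.42 TPM in WT and A4KO cells of CAKi-1 (adjusted p = 0.279; 0.0198 for a difference of -0.87 over replicates 2, 3 and 5, and 0.626 for 0.18 over replicates 1 and 4) and 1.43 and 0.971 TPM in 786O (adjusted p = 0.139).

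The collagen receptor subunits *ITGA1* and *ITGA2*, neighbours on chromosome 5 (52787916 to 52959209 and 52989340 to 53094779), moved in opposite directions in CAKi-1. *ITGA1* rose by 0.74 (SE 0.12, limma adjusted p = 0.00146), from 7.75 to 13.7 TPM (0.58 over replicates 2, 3 and 5 and 0.97 over replicates 1 and 4), and *ITGA2* fell by 0.41 (adjusted p = 0.0074), from 3.6 to 2.45 TPM (by 0.33 and 0.54 over these sets). In 786O both fell, *ITGA1* by 0.39 (adjusted p = 0.00341, but -0.19 and 0.0577 under quantile normalization) and *ITGA2* by 0.58 (adjusted p = 3.5e-05). The lines differed for *ITGA1* by -1.13 (adjusted p = 6e-05), and for *ITGA2* by -0.17 (95% interval -0.43 to 0.09, adjusted p = 0.257). *ITGA11* rose by 0.65 in CAKi-1 (adjusted p = 0.0396), to 1.85 TPM, which rested on replicates 1 and 4 (1.03, adjusted p = 0.00236) and was not passed over replicates 2, 3 and 5 (0.41, adjusted p = 0.145). *ITGA10*, at group means below 1 TPM in both lines, fell in 786O from 0.748 to 0.231 TPM, by 0.51 (adjusted p = 0.02), with no overlap. In CAKi-1 *ITGA10* differed by 0.14 (adjusted p = 0.129), by 0.23 over replicates 1 and 4 (adjusted p = 0.0252) and by 0.07 over replicates 2, 3 and 5 (adjusted p = 0.389).

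Several subunits named for leukocytes were detected in these epithelial tumor lines, with no fixed list drawn up for them. *ITGA4*, *ITGB7* and *ITGB2* were called in 786O, where 7.62% of all genes were called. *ITGA4*, the α4 subunit, which pairs with β1 or β7 and binds VCAM1 and fibronectin, held 9.64, 8.60 and 9.30 TPM in 786O WT and 1.86, 2.17 and 1.72 TPM in A4KO libraries. Every A4KO library lay far below WT, and *ITGA4* fell by 1.81 (SE 0.07, limma adjusted p = 5.28e-06). In CAKi-1 the WT libraries held 19.9, 18.9, 16.0 and 15.5 TPM and A4KO replicates 1 to 5 held 8.41, 13.8, 15.4, 8.27 and 15 TPM. The lowest WT and the highest A4KO library nearly met, and the difference of -0.53 (SE 0.20) did not pass the adjustment (adjusted p = 0.0561). It was -0.98 over replicates 1 and 4 (adjusted p = 0.00055) and -0.23 over replicates 2, 3 and 5 (adjusted p = 0.0865), and *ITGA4* also passed without A4KO replicate 3 (-0.63, adjusted p = 0.0335) or 5 (-0.62, adjusted p = 0.0391). With all libraries kept, it passed among genes with a mean of at least 1 TPM (adjusted p = 0.0461) and neighbour-corrected (-0.65, adjusted p = 0.0308).

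*ITGB7*, the β7 subunit of the gut-homing receptors, was the single member called higher in 786O. It held 0.116, 0.361 and 0.219 TPM in WT and 4.02, 2.85 and 2.55 TPM in A4KO libraries. The groups did not overlap, and *ITGB7* rose by 1.74 (SE 0.14, limma adjusted p = 0.0001). Its WT libraries lie below 1 TPM, so the size depends on the pseudocount, and with 0.1 in place of 1 the rise was 3.33 (adjusted p = 0.000511). In CAKi-1 it ran from 0.810 to 1.70 TPM in WT and from 0.324 to 1.32 TPM in A4KO libraries (adjusted p = 0.183), and the lines differed by 2.05 (adjusted p = 1.41e-05). *ITGAE*, the α subunit that pairs with β7 alone, fell in 786O from 86.9 ± 4.04 TPM to 53.8 ± 1.43 TPM (SD, n = 3 each), by 0.68 (limma adjusted p = 4.72e-05). Neighbour-corrected, the 786O difference of *ITGAE* was -0.12 (adjusted p = 0.104). It was 44 and 38.9 TPM in WT and A4KO cells of CAKi-1 (adjusted p = 0.255), with a difference of -0.44 over replicates 1 and 4 (adjusted p = 0.00376) and of -0.02 over replicates 2, 3 and 5 (adjusted p = 0.898).

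*ITGB2*, the β2 subunit of leukocyte integrins, held 8.69, 6.5 and 7.18 TPM in WT and 3.15, 2.75 and 3.72 TPM in A4KO libraries of 786O. The groups did not overlap, and it fell by 1.01 (SE 0.12, limma adjusted p = 0.000539). This lies at the 2-fold threshold, and without WT replicate 1 the difference was -0.90, without A4KO replicate 1 -1.0 (just under the threshold) and without A4KO replicate 2 -0.93. In CAKi-1 *ITGB2* ran from 0.0565 to 0.224 TPM in WT and from 0.346 to 0.567 TPM in A4KO libraries (difference 0.35, adjusted p = 0.00216), all below 1 TPM, and the rise was 1.24 with a pseudocount of 0.1. Its α partner *ITGAX* went the opposite way in each line, falling by 0.52 in CAKi-1 (adjusted p = 0.0273) to 2.42 TPM and rising by 0.52 in 786O (adjusted p = 0.000168) to 1.05 TPM. The CAKi-1 fall was 0.73 over replicates 2, 3 and 5 (adjusted p = 0.000985), and over replicates 1 and 4 the difference was -0.20 (adjusted p = 0.114). *ITGAD* did not pass the test in either line (adjusted p = 0.148 and 0.486), nor did *ITGAL*, *ITGA9* or *ITGA2B*. *ITGA2B* differed in CAKi-1 by 0.67 over replicates 1 and 4 (adjusted p = 0.0113) and by 0.25 over replicates 2, 3 and 5 (adjusted p = 0.285). *ITGAX*, *ITGAD* and *ITGAM* are similar in sequence and lie side by side on chromosome 16, and how the upstream counting shared reads between them is not stated.

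**Figure D3:**
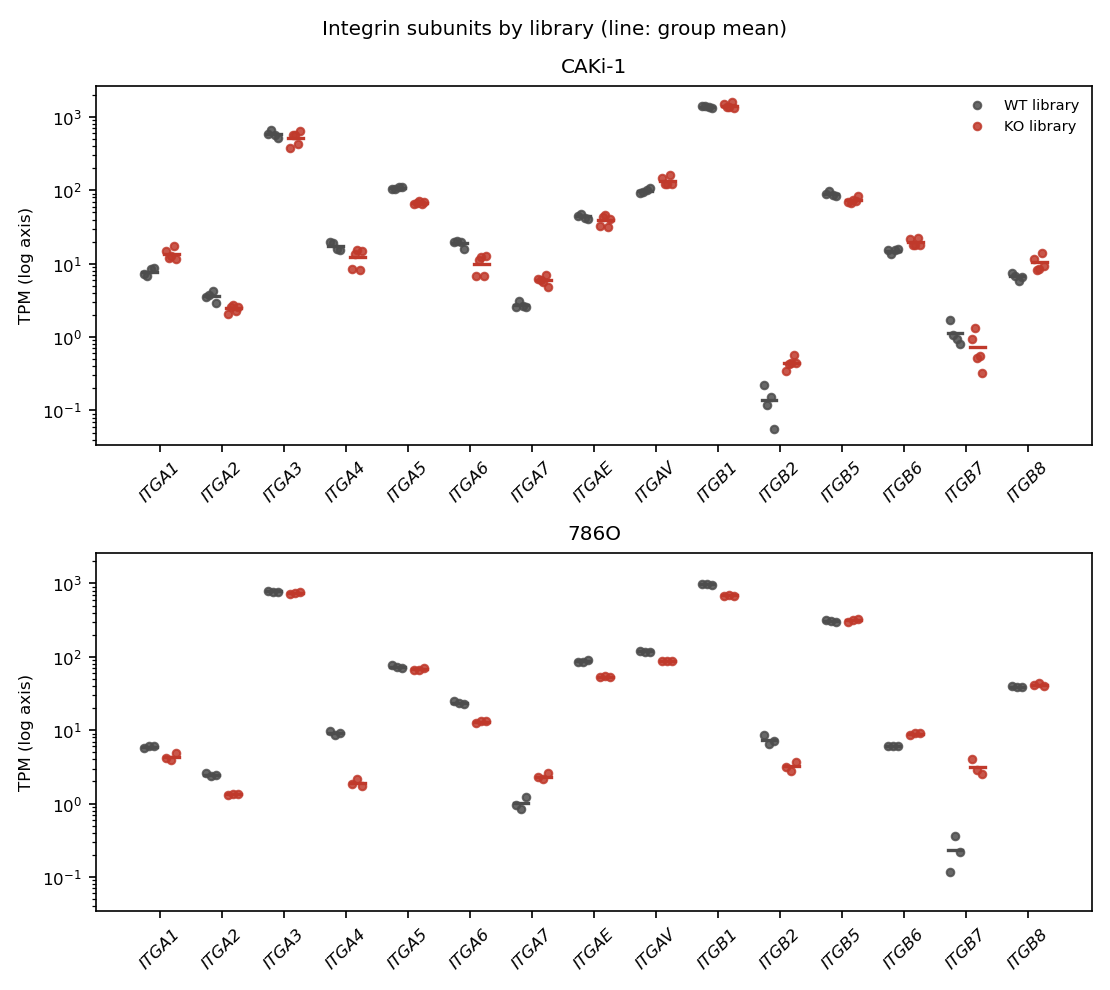
TPM of 15 integrin subunits other than *ITGB3* in each library of CAKi-1 (upper panel) and 786O (lower panel) on a log axis, with lines at the group means. *ITGB1* and *ITGA3* are highest in both lines, and the widest gaps between WT and A4KO libraries are those of *ITGB7* (0.116 to 0.361 against 2.55 to 4.02 TPM) and *ITGA4* in 786O.

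Counted over all members, A4KO cells of 786O held more called members than those of CAKi-1. In CAKi-1, 2 of 38 members were called (5.26%), both higher, where 3.33% of all genes were called and 2.21% were called higher. By adjusted p alone 12 rose and 10 fell (57.9% in all), where 39.0% of all genes passed, and the genotypes did not overlap for 20 members (52.6%) and for 35.9% of all genes. In 786O, 7 of 36 members were called (19.4%), against 7.62% of all genes. Of these 6 were lower, where 5.19% of all genes were called lower, and 1 was higher, where 2.43% were called higher. By adjusted p alone 5 rose and 18 fell (63.9% in all), where 61.0% of all genes passed, and the genotypes did not overlap for 25 members (69.4%) and for 66.9% of all genes. The passing shares in 786O are thus near those of all genes, and the median difference was 0.05 in CAKi-1 and -0.30 in 786O, beside -0.01 and -0.03 over all genes.

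The A4KO effect differed between the lines at least 2-fold for 11 of the 36 shared members (30.6%), beside 12.8% of all shared genes, and by adjusted p alone for 24 members, beside 55.1%. For 9 of the 11 the effect was lower in 786O (*FN1*, *ITGB3*, *LAMA5*, *ITGB2*, *ITGA4*, *LAMB2*, *ITGA1*, *LAMA4* and *LAMB3*), and for *ITGB7* and *ITGAX* it was higher. Members that passed by adjusted p in both lines were 2 that rose in both (*ITGA7* and *ITGB6*, beside 4.95% of all shared genes), 5 that fell in both (*ITGA2*, *ITGA6*, *LAMB1* and *LAMC1* among them, beside 7.08%) and 8 that went opposite ways (beside 16.0%). The 8 were *FN1*, *ITGB3*, *ITGAV*, *ITGA1*, *ITGB2*, *ITGAX*, *LAMB2* and *LAMB4*, of which *ITGA1* in 786O, and *LAMB4* and *ITGAX* in CAKi-1, missed the threshold under an alternative given above. Levels at WT also differed between the tables, with *FN1* at 221 TPM in CAKi-1 and 4080 TPM in 786O, *ITGB3* at 19.7 and 222 TPM, *LAMA4* at 26.9 and 0.593 TPM and *ITGB8* at 6.69 and 39.2 TPM.

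**Figure D4:**
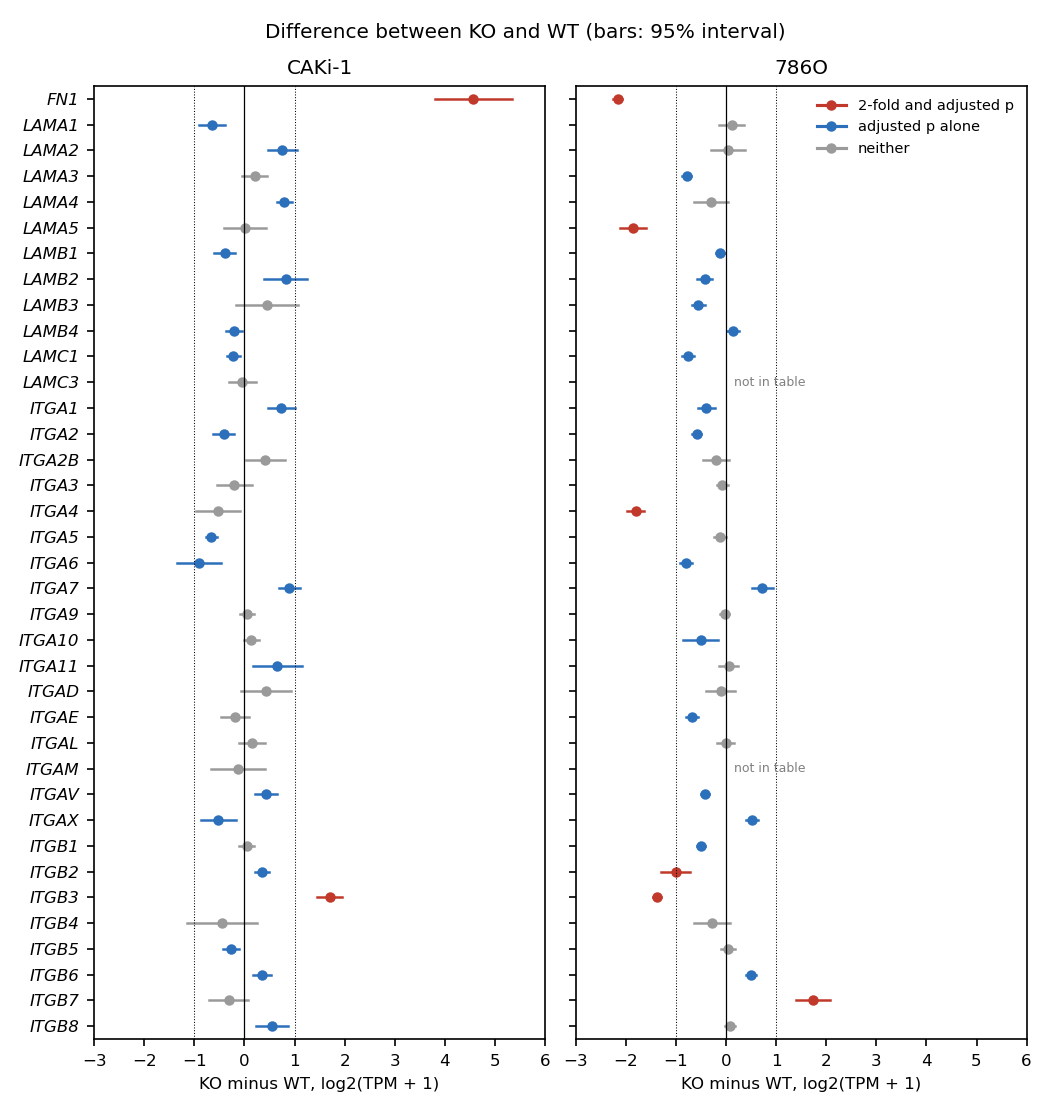
Difference between A4KO and WT cells in log2(TPM + 1), with 95% intervals, for the members described in CAKi-1 (left) and 786O (right), colored by whether the member passed 2-fold and adjusted p, adjusted p alone, or neither. *FN1* (4.57 and -2.16) and *ITGB3* (1.70 and -1.38) are the members called in both lines, and most called members of 786O lie on the negative side.

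The genes that work with these members were read from 5 lists drawn up by function, covering 79 genes, of which 72 were measured in CAKi-1 and 73 in 786O. In CAKi-1, 5 were called higher and 5 lower, beside 2.21% and 1.12% of all genes, and by adjusted p alone 12 rose and 26 fell, beside 17.9% and 21.1% of all genes. In 786O all 14 called genes were lower, beside 5.19% of all genes, and by adjusted p alone 13 rose and 45 fell, beside 27.5% and 33.5%. The median difference over the lists was -0.13 in CAKi-1 and -0.36 in 786O. Of the talins, kindlins and adaptors, 13 of 28 fell and 3 rose by adjusted p in CAKi-1, and 19 fell and 4 rose in 786O, to be read against the same shares. *PXN* (paxillin), chosen after its values were seen, fell by 1.07 in CAKi-1 (adjusted p = 3.81e-05) and rose by 0.50 in 786O (adjusted p = 0.00017).

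*TGM2*, a transglutaminase that cross-links fibronectin and binds it at the cell surface, and *VCAM1*, the ligand of α4 integrins, moved as *FN1* and *ITGB3* did. *TGM2* rose in CAKi-1 from 50.0 ± 11.4 TPM (SD, n = 4) to 298 ± 12.9 TPM (SD, n = 5), by 2.58 (limma adjusted p = 3.42e-06), and fell in 786O from 112 ± 1.82 TPM to 40.3 ± 1.31 TPM (SD, n = 3 each), by 1.45 (limma adjusted p = 1.46e-06). *VCAM1* was 98.2 to 249 TPM in WT and 570 to 830 TPM in A4KO libraries of CAKi-1, a rise of 2.24 (limma adjusted p = 0.000263), and fell in 786O by 2.77 (adjusted p = 3.72e-07), from 44.2 to 5.65 TPM. The effects differed by -4.03 for *TGM2* (adjusted p = 4.98e-10) and by -5.01 for *VCAM1* (adjusted p = 4.86e-08). *PTK2B*, a kinase related to focal adhesion kinase, rose by 1.66 in CAKi-1 (adjusted p = 0.000665), from 8.81 to 31.3 TPM. Its A4KO replicates 1 and 4 held 42.3 and 44 TPM and replicates 2, 3 and 5 held 27.5, 21.3 and 21.4 TPM, a ratio of 1.84 between the means of the sets. It was 1.28 and 1.62 TPM in WT and A4KO cells of 786O (adjusted p = 0.235). *PTK2*, focal adhesion kinase itself, held 118 to 129 TPM in WT and 75.5 to 82.1 TPM in A4KO libraries of CAKi-1. The lines differed for *PTK2* by 0.08 (adjusted p = 0.318, interaction term of limma), and it was chosen after its values were seen.

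The largest falls among the partners were in 786O. *TNC*, tenascin C, a matrix protein that binds fibronectin, held 41.6 to 47.6 TPM in WT and 0.185 to 0.319 TPM in A4KO libraries, a difference of -5.16 (limma adjusted p = 1.28e-07). *NID2*, nidogen 2, which links laminin to collagen IV, went from 93.3 ± 3.49 TPM to 5.55 ± 0.372 TPM (SD, n = 3 each), a difference of -3.85 (limma adjusted p = 2.01e-07). *LOX*, the lysyl oxidase that cross-links collagen and elastin, went from 19.6 to 0.506 TPM, a difference of -3.78 (limma adjusted p = 1.14e-06). In CAKi-1 *TNC* was 13.0 and 16.1 TPM (adjusted p = 0.088), *NID2* ran from 0.446 to 1.27 TPM over the libraries, and *LOX* rose by 0.61 (adjusted p = 0.0231). The mean of *LOX* was 25.2 TPM in WT, 32.5 TPM over A4KO replicates 2, 3 and 5 and 49.8 TPM over replicates 1 and 4. *PLAU*, the urokinase that activates plasmin, fell in both lines, by 1.25 in CAKi-1 (adjusted p = 3.97e-05) and by 1.19 in 786O (adjusted p = 2.83e-06), and was chosen after its values were seen.

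**Figure D5:**
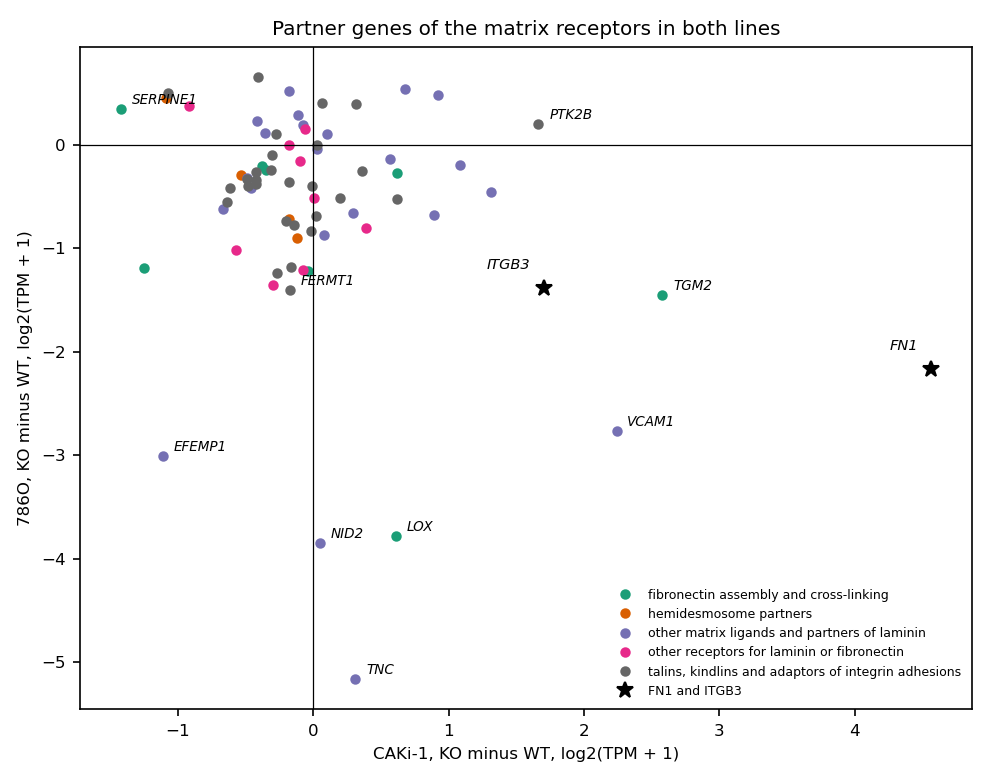
Difference between A4KO and WT cells in log2(TPM + 1) in CAKi-1 (horizontal axis) and 786O (vertical axis) for each partner gene measured in both lines, colored by list, with *FN1* and *ITGB3* as stars. *TGM2* (2.58 and -1.45) and *VCAM1* (2.24 and -2.77) lie in the same quadrant as *FN1*, while *TNC*, *NID2* and *LOX* lie far down near the vertical axis.

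Marker genes of the labelled cell type and of other cell types moved beside these results. *PAX8*, a marker of renal epithelium, was 143 to 198 TPM in WT and 157 to 230 TPM in A4KO libraries of CAKi-1 (adjusted p = 0.578). In 786O it fell from 225 to 238 TPM in WT to between 148 and 155 TPM in A4KO libraries, by 0.60 (adjusted p = 4.48e-05), while *CDH1* was below 1 TPM in both lines. The summed level of the renal epithelial list (9 of 10 genes listed in CAKi-1, 10 of 10 in 786O) was 2307 to 3158 TPM in WT and 824 to 1283 TPM in A4KO libraries of CAKi-1, and 1515 to 1528 TPM and 1050 to 1061 TPM in 786O. The fall in CAKi-1 was mostly in *KRT8* and *KRT18*. In 786O mean *KRT8* went from 629 to 456 TPM, *CDH6* from 213 to 43.8 TPM and *CDH2* from 123 to 70.8 TPM, while *PAX2* rose from 11.2 to 41.0 TPM, by 1.78 (adjusted p = 3.22e-06). The fibroblast list (6 of 7 genes in both lines) summed to 24.4 to 34.1 TPM in WT and 48.4 to 72.7 TPM in A4KO libraries of CAKi-1. *COL1A1* made most of that rise, and *COL1A2* and *PDGFRA* stayed below 1 TPM, while *LUM* fell from 3.63 to 1.58 TPM, by 0.85 (adjusted p = 0.000641), with no overlap. In 786O the fibroblast list summed to 11.5 to 15.6 TPM in WT and 9.61 to 12.4 TPM in A4KO libraries. Within it *PDGFRB* rose from 0.407 to 4.69 TPM, by 2.0 (adjusted p = 5.85e-05), and *LUM* fell from 7.93 to 1.28 TPM, by 1.96 (adjusted p = 1.82e-05).

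For the leukocyte list (5 of 8 genes in CAKi-1, 4 of 8 in 786O) the sums were 58.0 to 61.3 TPM in WT and 52.5 to 65.4 TPM in A4KO libraries of CAKi-1, and 46.4 to 47.5 TPM and 21.1 to 22.0 TPM in 786O. These came mostly from *CD68*, which fell in 786O from 43.1 to 20.2 TPM, by 1.06 (adjusted p = 5.73e-06). *CSF1R*, a macrophage receptor, fell there from 3.53 to 0.852 TPM, by 1.31 (adjusted p = 0.000387), beside the fall of *ITGB2*, and rose in CAKi-1 from 1.51 to 3.35 TPM, by 0.78 (adjusted p = 0.00388). *PTPRC*, the defining leukocyte marker, was below 1 TPM in every library. The endothelial list rested on 1 of 5 genes in CAKi-1, *PECAM1*, which was 0.209 to 0.555 TPM in WT and 1.54 to 6.17 TPM in A4KO libraries, and on 2 of 5 genes in 786O, which summed to 1.09 to 1.58 TPM in WT and 0.536 to 0.588 TPM in A4KO libraries. The list of megakaryocytes and platelets (2 of 4 genes in CAKi-1, none listed in 786O) summed to 0.610 to 0.821 TPM in WT and 1.97 to 3.06 TPM in A4KO libraries of CAKi-1. The part of these shifts in the levels of the members was not tested, and in bulk RNA fewer cells that express a gene and less RNA per cell cannot be told apart.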

How the data were processed

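RNA-seq of 15 libraries was analysed, grouped by the genotype, cell line and replicate in the sample labels. The authors isolated poly(A) RNA, used kallisto with hg38 and deposited 1 table of gene values per line, with versions not given in the sources used here. The deposited values were taken as TPM from the values themselves, since they are not whole numbers and each library sums to between 961437 and 973887. The step from transcripts to genes, and any filter on genes, are not described. TPM cannot be turned back into reads, so tools for counts were not used.

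The TPM were put on the log2(TPM + 1) scale, and A4KO was compared with WT in each line with limma 3.58.1 (lmFit, eBayes) in R 4.3.3, two-sided, with no filter and adjustment by Benjamini-Hochberg across the whole table. Calls needed a change of 2-fold or more with adjusted p no greater than 0.05, and a gene was said to rise or fall where the adjusted p was at most 0.05. Adjusted p of single genes are from this model. The difference between lines was the interaction term of limma over the 15247 shared genes. Exact permutation tests used all 126 splits in CAKi-1 and all 20 in 786O. On simulated data with 200 changed genes limma recovered 99.5% in each line with 0 false calls, and 97.5% with 3 false calls for the interaction. The planted changes were of 2 on the log2 scale, in genes with a mean above 2 on that scale. Noise was drawn independently for each library. Smaller changes, low members and the 2 sets of CAKi-1 A4KO libraries were therefore not covered.

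Members and lists were chosen with earlier results of these data known. Named members are *FN1*, those called in a line and those with a group mean of at least 10 TPM (24 members), and named partners are the called genes with the 3 largest changes per line; *ITGA2*, *ITGA7*, *ITGA11*, *ITGAX*, *LAMA2* and further low members were added to account for the rest. For 1 member, which is kept in all counts, values are not reported here. Alternatives were a pseudocount of 0.1, trend and robust options of eBayes, omitting genes below a mean of 1 TPM, quantile normalization, a block for the replicate number, omission of each library, adjusted p alone, removal of the shift of 25 neighbouring genes per side, and A4KO replicates 2, 3 and 5 alone. A4KO replicates 1 and 4 alone were added after the data were seen. Gene positions are from GENCODE release 44 and promoters from RefSeq (GRCh38.p14).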

Additional observations from a re-analysis of the deposited data

Results flagged for a closer look

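In 2 of 48 groups of members and libraries examined, 1 library lay far from the others of its group, where chance gives about 1 in 20 groups. Both were CAKi-1 WT replicate 4, which was low for *ITGA6* (16.0 TPM beside 19.6 to 20.1 TPM, a gap of 0.882 of the range) and for *LAMA3* (17.0 TPM, a gap of 0.923 of the range). The A4KO libraries of CAKi-1 held 6.72 to 12.6 TPM of *ITGA6*, all below this library.

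By the interaction term of limma, the effect of ANGPTL4 loss differed at least 2-fold between the lines (adjusted p at most 0.05) for 10 of the 24 named members. Of all shared genes, 12.8% were called in this way. Members that passed by adjusted p with a smaller difference, *ITGA5* and *LAMA3* among them, are not counted. The value is the effect in 786O minus that in CAKi-1. It was -6.73 for *FN1*, -3.08 for *ITGB3*, -1.87 for *LAMA5*, -1.35 for *ITGB2*, -1.27 for *ITGA4*, -1.25 for *LAMB2*, -1.13 for *ITGA1*, -1.10 for *LAMA4*, -1.0 for *LAMB3* and 2.05 for *ITGB7*. *ITGB2* and *LAMA4* were below 1 TPM in all libraries of 1 line, where differences of log2(TPM + 1) are small by construction, and *LAMB3* lies at the 2-fold threshold. Line, *VHL* status and the choice of clones vary together here and cannot be told apart.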

How the results depend on the processing

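The calls of *FN1* and *ITGB3* kept direction and call in both lines under every alternative run. Of the 48 results of named members per line, leaving aside adjusted p alone, 39 kept direction and call (2-fold and adjusted p) throughout. Of 34 that passed by adjusted p alone, 6 missed it under at least 1 alternative (*ITGA1* and *ITGAE* in 786O, *ITGB5* and *LAMC1* in CAKi-1, *LAMB1* in both lines), and of 14 that did not pass, 11 passed under at least 1. The values are given above for those 6. Members called in CAKi-1 went from 2 to 5 with a pseudocount of 0.1 and to 6 over A4KO replicates 1 and 4, and by adjusted p alone were 22 in CAKi-1, 23 in 786O and 24 for the difference between lines. With each library left out, the called members were 2 to 2 in CAKi-1, 6 to 7 in 786O and 10 to 12 for the difference. Apart from adjusted p alone, shares of all genes under these alternatives are not given here. These counts therefore do not compare members with other genes. *ITGB2* in 786O fell below 2-fold under quantile normalization (-0.81) and without WT replicate 1, A4KO replicate 1 or A4KO replicate 2 (-0.90, -1.0 and -0.93), and in CAKi-1 was called with a pseudocount of 0.1 (1.24). *ITGA6* (-1.35) and *LAMB2* (1.25) were called in CAKi-1 over A4KO replicates 1 and 4.

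Direction turned for members that did not pass the test, and for *LAMC1*. In CAKi-1 these were *ITGB1* (-0.0041 under quantile normalization, -0.041 over A4KO replicates 2, 3 and 5), *ITGA3* (0.020 over those replicates) and *LAMA5* (-0.0020 under quantile normalization, -0.040 with neighbours taken off, -0.11 to 0.14 with each library left out, the negative values being -0.040, -0.11 and -0.073 without WT replicate 4, A4KO replicate 1 and A4KO replicate 4, and -0.27 over replicates 2, 3 and 5). *LAMC1* in CAKi-1 was 0.027 with neighbours taken off, and *ITGB5* in 786O was -0.035 under quantile normalization and -0.16 with neighbours taken off. The cause was not tested. Replicate numbers did not mark pairs, since same-numbered WT and A4KO libraries deviated together with correlations of -0.066 to 0.15 in CAKi-1 and -0.056 to 0.014 in 786O. With the replicate number as a block, 2 members were called in CAKi-1 and 7 in 786O, and *FN1* differed by 4.70 (adjusted p = 0.00122) and -2.16 (adjusted p = 7.99e-05). The unknown depth of single libraries limits what can be said of members below 1 TPM.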
